A study of Penicillium oxalicum with 12 samples.

Results

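XlnR (PDE_07674), ClrB (PDE_05999) and CreA (PDE_03168) are transcriptional regulators of plant cell wall degrading enzyme genes in the filamentous fungus Penicillium oxalicum. These 3 genes were taken by locus tag from a table of 9979 genes, and all 3 were among the 9125 that passed a filter on low values. The gene names follow the published assignment of these tags, since the table lists tags only. Messenger RNA had been sequenced in 12 libraries from 4 groups of 3 replicates. Nothing in the labels says that replicates came from separate cultures, so p-values measure the spread between these libraries, which may be technical. gCXC expresses a chimeric transcription factor named CXC, gXlnRC expresses XlnR with the substitution A871V, gAraRC expresses the regulator AraR with the substitution A731V, and the wild-type strain 114-2 (WT) served as control. Every culture, WT included, grew for 24 h with 2% glucose and then for 4 h without a carbon source, at 30 °C and 200 rpm. The sources used here do not give the parts that make up CXC, the promoters of the constructs, their sites of integration or the number of transformants per strain. Levels are FPKM, fragments scaled to gene length and to the library total. These totals, 14549534 to 20092360 reads per library, were recovered from the FPKM values and taken as reads counted in genes.

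XlnR is a zinc binuclear cluster activator, known in related fungi as the main activator of xylanase genes and, in several species, of cellulase genes. ClrB is a zinc cluster activator, the counterpart of CLR-2 of Neurospora crassa, where that protein is needed for cellulase expression. CreA is the zinc finger repressor of carbon catabolite repression, which keeps such genes low while glucose is present. Production of these enzymes is therefore commonly described as a balance between activators, here XlnR and ClrB, and the repressor CreA.

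With FPKM as deposited, XlnR mRNA was called higher than in WT in 2 of the 3 engineered strains. It stood at 247.7, 247.8 and 247.4 FPKM in gCXC and at 76.5, 90.0 and 75.0 FPKM in gXlnRC. The gAraRC libraries had 16.4, 16.3 and 15.8 FPKM, and the WT libraries 14.7, 15.3 and 15.6 FPKM. The gCXC and gXlnRC libraries all lay far above the WT range, and the lowest gAraRC library lay just above the highest WT library. In means, this was 247.6 ± 0.196 FPKM in gCXC, 80.5 ± 8.25 in gXlnRC, 16.2 ± 0.328 in gAraRC and 15.2 ± 0.440 in WT (SD, n = 3 each), or 16.3 times WT in gCXC and 5.30 times WT in gXlnRC.

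The XlnR log2 change, fitted on log2(FPKM + 1), was 3.94 ± 0.06 in gCXC against WT (SE, limma, Benjamini-Hochberg adjusted p = 3.60e-13). Of the 9125 genes tested, 14 rose by at least as much in gCXC, XlnR included. In gXlnRC the log2 change was 2.33 ± 0.06 (limma, adjusted p = 3.63e-11), a rise matched or exceeded by 84 genes, XlnR included. In gAraRC it was 0.09 ± 0.06, with a 95% interval of -0.05 to 0.23 (limma, adjusted p = 0.24), so XlnR was not called there as deposited. It was called higher there under the other scalings given below. The gXlnRC strain is labelled as expressing XlnR, and all 3 of its libraries had more XlnR mRNA than any WT library. The length recovered for PDE_07674 from the FPKM steps was 2964 nt or 988 codons, which spans residue 871.

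The table holds 1 value per gene. Reads from an introduced copy of XlnR or ClrB sequence would therefore be counted together with those of the native gene, and the contribution of either copy to the values in gCXC and gXlnRC cannot be told apart. In reads scaled to the library total alone (RPM), mean XlnR exceeded WT by 689 RPM in gCXC and by 194 RPM in gXlnRC. Mean ClrB exceeded WT by 79.0 RPM in gCXC and by 4.25 RPM in gXlnRC, the second of these not called. All values are shares of the mRNA counted in a bulk culture, so changes in the makeup of the mycelium and in RNA per cell cannot be told apart.

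ClrB mRNA was raised in gCXC and, with FPKM as deposited, lower in gAraRC. It had 114, 115 and 104 FPKM in gCXC, and 79.4, 78.9 and 79.3 FPKM in gXlnRC. The gAraRC libraries had 59.1, 65.8 and 57.5 FPKM, against 75.8, 78.6 and 77.7 FPKM in WT. No gCXC or gAraRC library overlapped the WT range, and the gXlnRC libraries sat directly above it. For none of the 3 regulator genes did the FPKM ranges of any strain pair overlap, also where no difference was called. The share of all tested genes without overlap was not counted, so these ranges are description only. Mean ClrB was 111 ± 6.23 FPKM in gCXC and 77.4 ± 1.41 FPKM in WT (SD, n = 3 each), a ratio of 1.44, with a log2 change of 0.51 ± 0.06 (SE, limma, adjusted p = 2.02e-05). Of all tested genes, 7.33% rose by at least as much. In gXlnRC, mean ClrB was 79.2 ± 0.272 FPKM (SD, n = 3), and its log2 change of 0.03 ± 0.06 (95% interval -0.10 to 0.16) did not pass the test (limma, adjusted p = 0.65). In gAraRC, ClrB averaged 60.8 ± 4.42 FPKM (SD, n = 3) and its log2 change was -0.35 ± 0.06 (limma, adjusted p = 0.00017). Of all tested genes, 49.2% fell by at least as much there.

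CreA mRNA was the most abundant of the 3 in every library. It had 298, 266 and 277 FPKM in gCXC, and 298, 328 and 299.9 FPKM in gXlnRC. In gAraRC it had 158, 155 and 175 FPKM, and in WT 208, 249 and 219 FPKM. The gCXC and gXlnRC libraries lay above every WT library and the gAraRC libraries below, while the ranges of gCXC and gXlnRC touched, with the highest gCXC library at 297.8 FPKM and the lowest gXlnRC library at 297.9 FPKM. The means were 279.97 ± 16.4 FPKM in gCXC, 309 ± 17.0 in gXlnRC, 163 ± 10.9 in gAraRC and 226 ± 21.6 in WT (SD, n = 3 each).

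The log2 change of CreA against WT was 0.31 ± 0.08 in gCXC (SE, limma, adjusted p = 0.0049), a ratio of means of 1.24. It was 0.45 ± 0.08 in gXlnRC (limma, adjusted p = 0.00034), a ratio of 1.37. In gAraRC it was -0.46 ± 0.08 (limma, adjusted p = 0.00013), a ratio of 0.722, and 40.9% of tested genes fell by at least as much. Rises at least as large as that of CreA were seen for 16.9% of tested genes in gCXC and 10.5% in gXlnRC, so the change of the repressor gene was common in size, unlike that of XlnR.

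**Figure D1:**
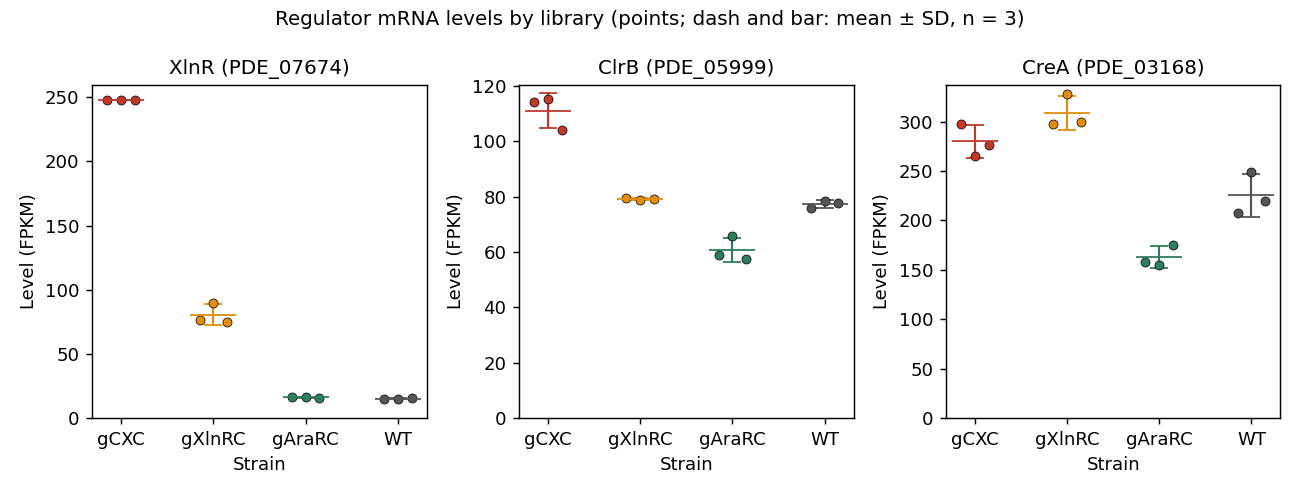
Level in FPKM (vertical axes, from 0) of XlnR, ClrB and CreA in each of the 12 libraries, by strain (horizontal axes); points are libraries, and dash and bar give the mean ± SD of 3. XlnR stands near 247.6 FPKM in gCXC and near 80.5 FPKM in gXlnRC, against 15.2 FPKM in WT. ClrB means run from 60.8 FPKM in gAraRC to 111 in gCXC, and CreA means from 163 in gAraRC to 309 in gXlnRC.

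Counted per strain, all 3 regulator genes were called higher than in WT in gCXC, where 23.8% of all tested genes were called higher. In gXlnRC, 2 of the 3 (XlnR and CreA) were called higher, against 19.1% of all tested genes. In gAraRC, 2 of the 3 (ClrB and CreA) were called lower, against 57.0% of all tested genes, so a lower call was the usual outcome for a gene in that strain. The 3 comparisons share the WT libraries and are not independent of each other.

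The gAraRC result turns on how libraries are scaled. The summed FPKM of every engineered library was below that of every WT library. Over the 9125 genes, the median of the log2 changes against WT was -0.34 in gAraRC, -0.10 in gXlnRC and -0.0026 in gCXC. Relative to this median, ClrB in gAraRC stood at -0.01, CreA at -0.13 and XlnR at 0.42. When libraries were instead scaled by the median of ratios, the log2 change of ClrB in gAraRC against WT was 0.0045 (limma, adjusted p = 0.95) and that of CreA was -0.11 (limma, adjusted p = 0.23), so both lower calls ended. With TPM scaling both lower calls held, at -0.19 for ClrB (limma, adjusted p = 0.020) and -0.31 for CreA (limma, adjusted p = 0.0047). With median-of-ratios scaling, XlnR was called higher in gAraRC, at 0.42 (limma, adjusted p = 0.00017). It was also called higher there by quantile normalization (0.44) and by TPM scaling (0.23). ClrB in gXlnRC, at 0.13 relative to the median, passed the test narrowly with median-of-ratios scaling (0.14, limma, adjusted p = 0.044) and quantile normalization (0.17, limma, adjusted p = 0.029), but not with TPM scaling. The rises of XlnR, ClrB and CreA in gCXC, and of XlnR and CreA in gXlnRC, were called under all 4 scalings.

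**Figure D2:**
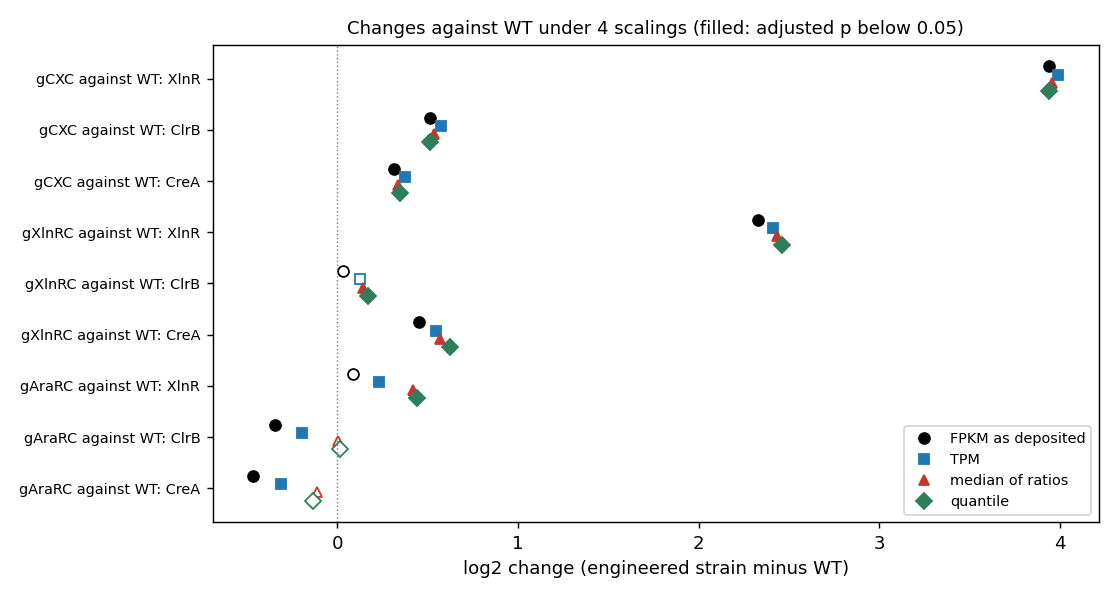
Log2 change against WT (horizontal axis) of each regulator gene in each engineered strain, with FPKM as deposited and under 3 other scalings; filled symbols had an adjusted p below 0.05 (limma). In gAraRC, ClrB moves from -0.35 as deposited to 0.0045 by median of ratios and XlnR from 0.09 to 0.42, while the XlnR changes in gCXC and gXlnRC hardly depend on the scaling.

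Direct comparisons of the engineered strains ordered the levels. Between gCXC and gXlnRC, XlnR was higher in gCXC by 1.61 ± 0.06 on the log2 scale (SE, limma, adjusted p = 1.34e-09) and ClrB by 0.48 ± 0.06 (limma, adjusted p = 2.25e-05). These were 2 of the 3 regulator genes, where 36.1% of all tested genes were called higher in gCXC. CreA differed by -0.14 ± 0.08 with a 95% interval of -0.31 to 0.03 (limma, adjusted p = 0.14) and was not called as deposited, but it was called lower in gCXC with median-of-ratios scaling (-0.23, limma, adjusted p = 0.027) and quantile normalization (-0.28, limma, adjusted p = 0.0079).

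All 3 genes were called higher in gCXC than in gAraRC, as were 53.2% of tested genes, with log2 differences of 3.85 ± 0.06 for XlnR, 0.86 ± 0.06 for ClrB and 0.78 ± 0.08 for CreA (SE, limma, highest adjusted p = 1.39e-06). All 3 were also called higher in gXlnRC than in gAraRC, as were 49.1% of tested genes. There the log2 differences were 2.24 ± 0.06 for XlnR, 0.38 ± 0.06 for ClrB and 0.92 ± 0.08 for CreA (SE, limma, highest adjusted p = 9.27e-05). These calls held under the other scalings, but at smaller sizes for ClrB and CreA. By median of ratios, ClrB differed by 0.14 (limma, adjusted p = 0.040) and CreA by 0.68 between gXlnRC and gAraRC, and by 0.53 and 0.45 between gCXC and gAraRC. By quantile normalization, ClrB differed by 0.15 (limma, adjusted p = 0.035) and CreA by 0.76 between gXlnRC and gAraRC, and by 0.50 and 0.48 between gCXC and gAraRC. The XlnR order was thus gCXC above gXlnRC, and gXlnRC above gAraRC and WT, which did not differ beyond the test as deposited. The ClrB order as deposited was gCXC, then gXlnRC and WT without a called difference, then gAraRC. For CreA the order as deposited was gXlnRC and gCXC without a called difference, then WT, then gAraRC. For both genes, the place of gAraRC below WT was not called by median of ratios or quantile normalization.

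**Figure D3:**
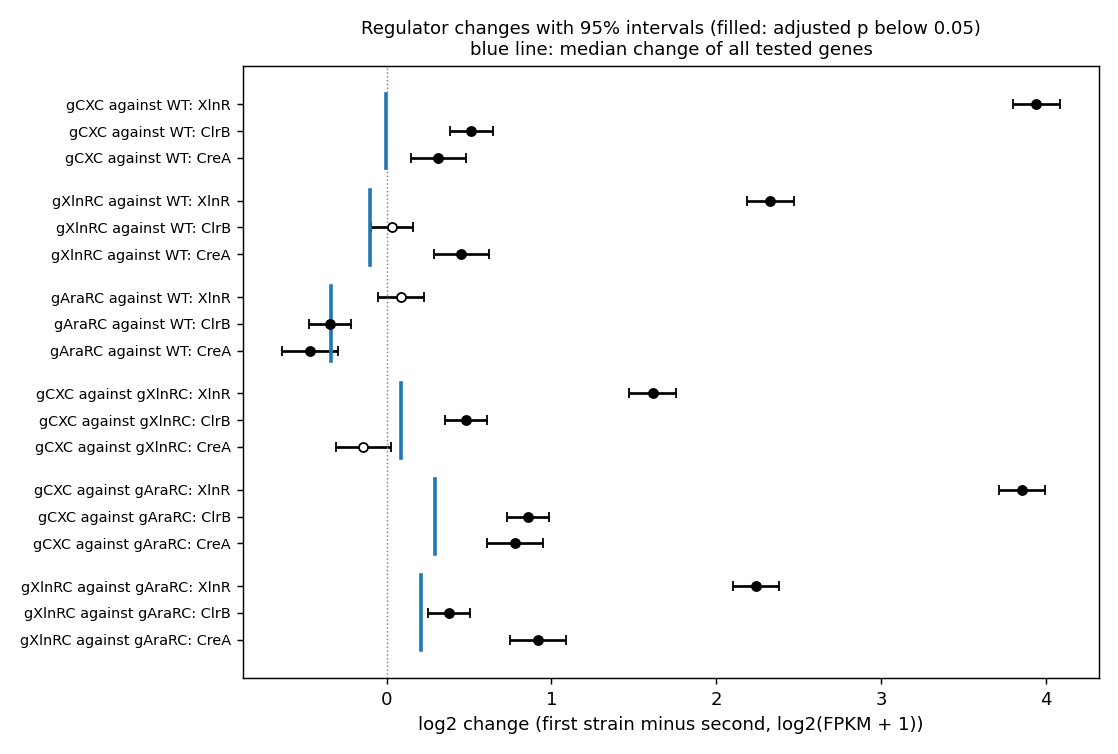
Log2 change (horizontal axis, first strain minus second) of the 3 regulator genes in the 6 comparisons, with 95% intervals from limma; filled points had an adjusted p below 0.05, and each blue line is the median over all genes tested. XlnR in gCXC against WT (3.94) and in gXlnRC against WT (2.33) stands apart from the median, and ClrB and CreA in gAraRC against WT have intervals that hold the median of -0.34.

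Differences among the 4 groups were called for all 3 genes by limma's F test, as for 91.5% of tested genes. XlnR had the 25th largest F statistic of 9125 genes (F = 1725), ClrB ranked 2144th (F = 72.0) and CreA 2697th (F = 55.9).

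The balance of activator to repressor mRNA was also read within each library, as the ratio of FPKM values of 2 genes. In gCXC and gXlnRC, XlnR or ClrB values may include reads of an introduced copy. Ratios in these strains may therefore not be those of the native genes alone. Such a ratio is per length, and multiplying a library by a factor (FPKM, TPM or median-of-ratios scaling) leaves it as it is. Quantile normalization is no such factor, and the ratios were not computed under it. XlnR stood at 0.832, 0.933 and 0.895 times CreA in the gCXC libraries and at 0.257, 0.274 and 0.250 times CreA in the gXlnRC libraries. It was 0.104, 0.105 and 0.0902 times CreA in gAraRC, against 0.0708, 0.0613 and 0.0710 in WT. No libraries of different strains overlapped in this ratio, including those of gAraRC and WT. Relative to WT, the geometric mean ratio was 13.1 times as high in gCXC, 3.85 times in gXlnRC and 1.47 times in gAraRC. The 4 groups differed (exact permutation test of F over 369600 assignments, p = 6.49e-05, the smallest this design can give, Benjamini-Hochberg adjusted p = 9.74e-05 over 3 ratios). How often ratios of other gene pairs separate or differ among the strains was not counted. By limma's F test 91.5% of single genes differed, so a separating ratio was not shown to be particular to these regulator genes. This limit holds for all 3 ratios.

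The ratio of ClrB to CreA moved much less and was lowest in gXlnRC. Its values were 0.383, 0.434 and 0.376 in gCXC, 0.267, 0.240 and 0.264 in gXlnRC, and 0.373, 0.424 and 0.328 in gAraRC, against 0.365, 0.315 and 0.354 in WT. All 3 gXlnRC libraries lay below every library of the other strains, and the gAraRC libraries overlapped those of both gCXC and WT. The geometric mean was 0.746 times WT in gXlnRC, 1.15 times WT in gCXC and 1.08 times WT in gAraRC, and the 4 groups differed (exact permutation test of F, p = 0.0051, adjusted p = 0.0051 over 3 ratios). In gXlnRC the ratio fell while ClrB itself was not called as deposited and CreA was called higher.

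Between the activators, with any reads of an introduced copy included, XlnR exceeded ClrB in every gCXC library. It had 2.17, 2.15 and 2.38 times the FPKM of ClrB. In gXlnRC the activators were close to equal, with ratios of 0.963, 1.14 and 0.946, so that XlnR was the higher of them in 1 library and ClrB in 2. In gAraRC the ratios were 0.278, 0.248 and 0.275, against 0.194, 0.195 and 0.200 in WT. The geometric mean was 11.4 times WT in gCXC, 5.16 times in gXlnRC and 1.36 times in gAraRC (exact permutation test of F over the 4 groups, p = 6.49e-05, adjusted p = 9.74e-05 over 3 ratios). Pairs of groups of 3 libraries cannot go below p = 0.10 in an exact test, so pairwise differences of ratios are given without one.

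**Figure D4:**
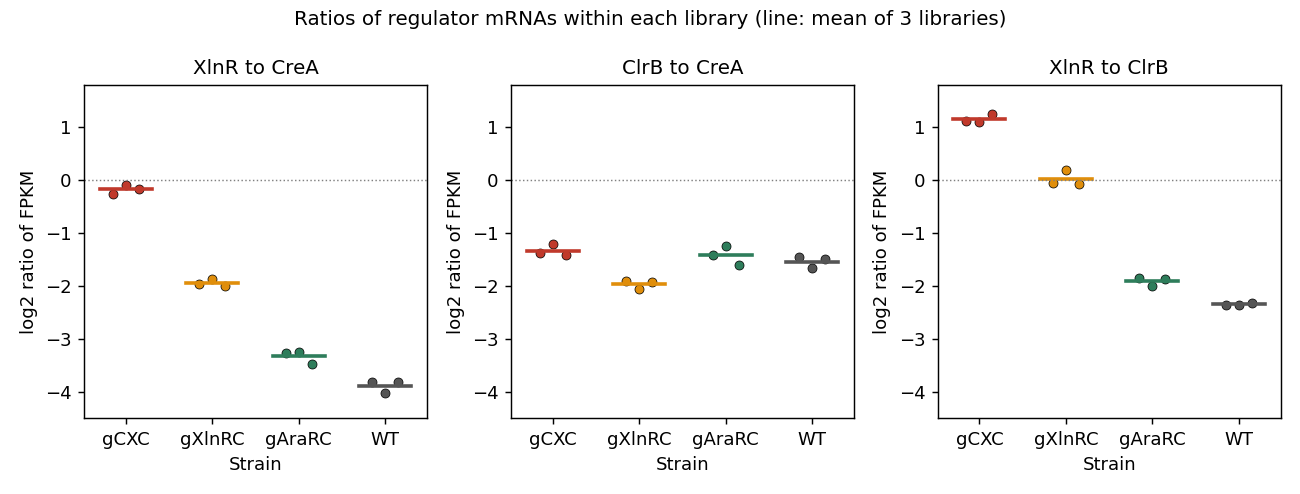
Log2 ratio of FPKM (vertical axes) of XlnR to CreA, ClrB to CreA and XlnR to ClrB within each library (points) by strain, with the mean of 3 libraries as a line; the dotted line marks equal FPKM. The means of XlnR to CreA step from -0.18 in gCXC through -1.94 in gXlnRC and -3.33 in gAraRC to -3.89 in WT, and ClrB to CreA is lowest in gXlnRC at -1.96.

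Placed among all tested genes of the same library by FPKM, XlnR exceeded 92.1% to 92.2% of genes in gCXC, 77.6% to 81.0% in gXlnRC and 43.0% to 43.9% in gAraRC, against 35.5% to 36.0% in WT. ClrB exceeded 81.5% to 83.4% in gCXC, 78.6% to 78.8% in gXlnRC and 75.3% to 78.2% in gAraRC, against 76.1% to 76.5% in WT. CreA exceeded at least 90.0% of genes in every library and at most 94.9%. By rank, with any reads of an introduced copy included, XlnR thus went past ClrB in gCXC. It came close to CreA, which exceeded 92.9% to 93.6% of genes there.

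The genes whose pattern over the 12 libraries was most like that of a regulator gene were found by the root-mean-square difference of log2(FPKM + 1) profiles, each centred on its own mean, among 6616 other genes with a mean of at least 10 FPKM. For XlnR, whose own profile had an SD of 1.65, the nearest were PDE_07928 (0.52) and PDE_05998 (0.70), against a median of 1.61 over all candidates. PDE_07928 averaged 521 ± 25.3 FPKM in gCXC, 228 ± 20.5 in gXlnRC and 20.5 ± 4.07 in gAraRC, against 45.5 ± 10.7 in WT (SD, n = 3 each). PDE_05998, whose tag is numbered next to that of ClrB, averaged 70.5 ± 5.78 FPKM in gCXC, 16.9 ± 0.720 in gXlnRC and 10.4 ± 1.31 in gAraRC, against 9.13 ± 1.07 in WT (SD, n = 3 each).

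This distance grows with the SD of a gene's own profile, so distances are not compared between the regulator genes. PDE_04062 and PDE_06655 lay at 0.062 and 0.066 from ClrB, whose profile had an SD of 0.31, against a median of 0.35 over all candidates. PDE_04062 averaged 88.8 FPKM in gCXC, 68.2 in gXlnRC and 52.2 in gAraRC, against 61.8 in WT. PDE_06655 averaged 21.1 ± 0.981 FPKM in gCXC, 13.6 ± 0.0236 in gXlnRC and 10.5 ± 0.183 in gAraRC, against 13.5 ± 0.646 in WT (SD, n = 3 each). PDE_09129 and PDE_01152 lay at 0.085 and 0.092 from CreA, whose profile had an SD of 0.36, against a median of 0.40. PDE_09129 averaged 34.4 ± 1.56 FPKM in gCXC, 36.4 ± 0.280 in gXlnRC and 19.5 ± 0.912 in gAraRC, against 29.5 ± 1.31 in WT (SD, n = 3 each).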

How the data were processed

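The authors deposited 1 table of FPKM values with a column per library. Per the submitters' processing notes the tools included featureCounts 1.5.0-p1, DESeq2, CASAVA 1.8 and HISAT2 2.0.0, with no roles stated. No genome build, annotation, strand setting or FPKM denominator was found (not given in the sources used here), so reads of overlapping genes could be shared. Of 9979 tags, 0 matched the gene table at hand, so no function is given for other tags and no list of pathway genes was run.

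Genes with at least 1 FPKM in at least 3 libraries (9125) were tested with limma 3.58.1 in R 4.3.3 on log2(FPKM + 1), with 4 group means over all 12 libraries (8 residual degrees of freedom, trended prior variance). Tests were two-sided, Benjamini-Hochberg adjustment ran over all tested genes of a comparison, and calls needed an adjusted p below 0.05. Log2 changes understate those of low genes. The fit was tested on simulated data.

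FPKM values are whole multiples of what 1 read is worth, which gave read numbers, library totals and gene lengths in steps of 3 nt. Lengths were found for 9123 tested genes by requiring values within 0.1 of whole reads. The step was fixed at 3 nt, and the summed reads then came close to the totals, which were taken as reads counted in genes. Replicate libraries differed by more than sampling noise (median squared z of at least 1.08, mean of at least 5.75).

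Ratios were tested with exact permutations, two-sided in effect through F. The members and lists were chosen with earlier results of these data known. Beside the members, the rule named the 2 nearest profiles per regulator. Alternatives covered pseudocounts of 0.1 and 5, filters, scalings, variance models, voom on recovered reads and leaving out each library. Tables and plots used Python 3.11.15, numpy 2.4.6, pandas 2.3.3 and matplotlib 3.10.9.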

Additional observations from a re-analysis of the deposited data

How the results depend on the processing

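The 18 log2 changes of the regulator genes gave 414 values under alternatives. Of these, 403 kept their direction and side of the threshold, 7 passed it newly and 2 no longer passed with the same sign. The last 2, both for ClrB in gAraRC against WT, changed sign to small values that also no longer passed (limma, adjusted p = 0.95 and 0.82). These 11 all came from rescaling the libraries, which moves the median over genes by construction. Median-of-ratios scaling gave 0.42 for XlnR, 0.0045 for ClrB (sign changed, not called) and -0.11 for CreA in gAraRC against WT. It gave 0.14 for ClrB in gXlnRC against WT, and -0.23 for CreA in gCXC against gXlnRC. Quantile normalization gave 0.44, 0.016 (sign changed, not called), -0.13, 0.17 and -0.28 for these, and TPM scaling 0.23 for XlnR in gAraRC against WT. With the pseudocounts, filters, variance models, voom and each left-out library, no call of these 18 changed, and XlnR in gCXC against WT ran from 3.65 to 4.03 over all alternatives. All 138 counts of called genes stayed within 1.5 times. The exact tests of the 3 ratios stayed below 0.05 in all 39 alternatives.

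The deviations of libraries with the same replicate number had correlations from -0.094 to 0.18 (median 0.036, 18 pairs), against -0.19 to 0.21 (median -0.018, 36 pairs) for different numbers. A library correlated best with its own number in 17 of 36 cases, each with 3 libraries to choose from. Since not every same-number pair passed 0.1, the numbers were not taken as pairs. Whether libraries of the same number shared a batch was not tested. With the number as a replicate block no call of the 18 changed, and called genes in gCXC against WT numbered 4579. Reads limit XlnR most, with 678 to 881 per WT library, a counting error of 3.64%.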

Other observations

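The tags numbered next to the regulator genes, 2 on each side, were also read. Of the 4 around XlnR, 2 were called higher in gCXC and 0 lower (log2 changes against WT from 0.00016 to 1.86), 3 were higher and 1 lower in gXlnRC (from -0.21 to 2.18), and 2 were higher and 2 lower in gAraRC. Of the 9125 tested genes, 4592 were called in gCXC, 2170 of them (23.8% of those tested) higher. In gXlnRC 4983 were called, 1746 (19.1%) higher, and in gAraRC 6944, of which 5200 (57.0%) were lower. The rest of the called genes went the other way. XlnR itself changed by 3.94 in gCXC and 2.33 in gXlnRC. Of the 4 around ClrB, 1 was called higher in gCXC and 2 lower, 2 higher in gXlnRC and 0 lower, and 0 higher in gAraRC and 2 lower. The higher one in gCXC, PDE_05998, rose by 2.82 on the log2 scale, against 0.51 for ClrB. It was singled out because its profile is also among the nearest to that of XlnR, so a rise in gCXC was built into the choice. Of the 4 around CreA, 4 were called higher in gCXC (from 0.16 to 1.74), 1 higher in gXlnRC (from -0.15 to 0.42), where CreA itself was called higher, and 4 lower in gAraRC (from -1.26 to -0.44), where a lower call was the usual outcome. Tag numbers were taken as order only, and positions in a genome were not used here.

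The spread between replicates was uneven. XlnR in gCXC had a coefficient of variation of 0.0792% over 3 libraries, below the 0.899% that counting of 11768 to 13626 reads alone would give on average. ClrB in gXlnRC had 0.344%, against 1.74% from counting. CreA in WT had 9.56%, against 1.46% from counting, with WT replicate 2 the highest library. The widest spread was that of XlnR in gXlnRC, 10.2% against 1.53% from counting, with gXlnRC replicate 2 the highest library. The limma fit shares variance between genes and groups, so the standard errors above rest neither on the smallest nor on the largest of these spreads. XlnR had the same standard error in every comparison, which may understate its spread in gXlnRC.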
